A study of Mus musculus with 33 samples.

Results

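The comparison described here is loss of the second copy of Six2 in the mouse kidney at embryonic day 11.5 (E11.5): whole kidneys labelled Six2 knockout against whole kidneys labelled heterozygous. Libraries were taken by the genotype and age in their labels, which gave 11 of the 33 libraries of the series: 5 knockout libraries from 5 embryos and 6 heterozygous libraries from 5 embryos, since 1 heterozygous embryo was sequenced in both batches and its counts were summed. The 6 wild-type E11.5 libraries, from 6 embryos, entered the model to share in the estimates of spread, sex and batch, and their levels are given for reference. The remaining libraries of the series are from E15.5 and were not analysed here. Heterozygous embryos lack 1 functional copy of Six2 and knockout embryos lack both, so every embryo compared here carries at least 1 mutant copy. The labels do not say how the mutant allele was made, what strain carried it, or whether a library holds 1 kidney, a pair or a pool.

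Six2 encodes a homeodomain transcription factor of the cap mesenchyme, the population of nephron progenitors that surrounds each tip of the branching ureteric bud. It holds these cells in a self-renewing, undifferentiated state, while Wnt signals from the ureteric bud drive a share of them to form epithelial nephron precursors. The progenitors in turn secrete GDNF, which acts through the receptor RET on the ureteric tips and keeps the bud branching. Kidneys without Six2 are known for early and ectopic nephron formation and for running out of progenitors.

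Of the 10 embryos, the 5 heterozygous were 2 female and 3 male and the 5 knockout were 4 female and 1 male. In batch 1 every heterozygous embryo was male and every knockout embryo female, so within that batch sex and these genotypes are separated only through the wild-type embryos. Library totals ran from about 10820000 to 26230000 counts. Ribosomal RNA genes took 3.46 to 18.3% of the counts of heterozygous batch 1 libraries, 0.871 to 12.3% of those of knockout batch 1 libraries, and 0.224 to 0.468% in batch 2. The sex label matched the counts of sex-linked genes in 11 of 11 libraries. The titles carry a letter-number prefix whose meaning is not given. Prefix G6 was carried only by knockout libraries (3 of the 5), and prefix G4 was the only one shared by heterozygous and knockout libraries, in different batches, so that prefix and genotype cannot be told apart over most of the comparison. Marker genes of nephron progenitors, ureteric bud, stroma, endothelium, macrophages, blood and neurons were all detected, whereas Aqp2, Nphs1 and Slc22a6, markers of mature collecting duct, podocytes and proximal tubule, had no counts in any of the 10 embryos.

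Six2 itself (chromosome 17, 85684277 to 85688274, minus strand, GRCm38) was measured at 13.9, 13.7, 16.7, 9.71 and 10.4 CPM (counts scaled to the size of the library) in the 5 heterozygous embryos and at 0.655, 0.286, 0.485, 0.441 and 0.457 CPM in the 5 knockout embryos. The groups did not overlap, and every knockout embryo kept a trace of counts on the gene. The difference was -4.70 ± 0.19 (log2 fold change ± SE, knockout minus heterozygous) with an adjusted p of 5.36e-10 in edgeR's quasi-likelihood test. By this fold change, adjusted for sex and batch, knockout kidneys held 3.84% of the heterozygous level. An exact two-sided permutation test of log2 CPM over the 252 splits of the 10 embryos gave p = 0.00794, the smallest it can give. Wild-type kidneys held 24.6 ± 5.57 CPM (mean ± SD, n = 6), against 12.8 ± 2.85 in heterozygous kidneys (n = 5).

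**Figure D1:**
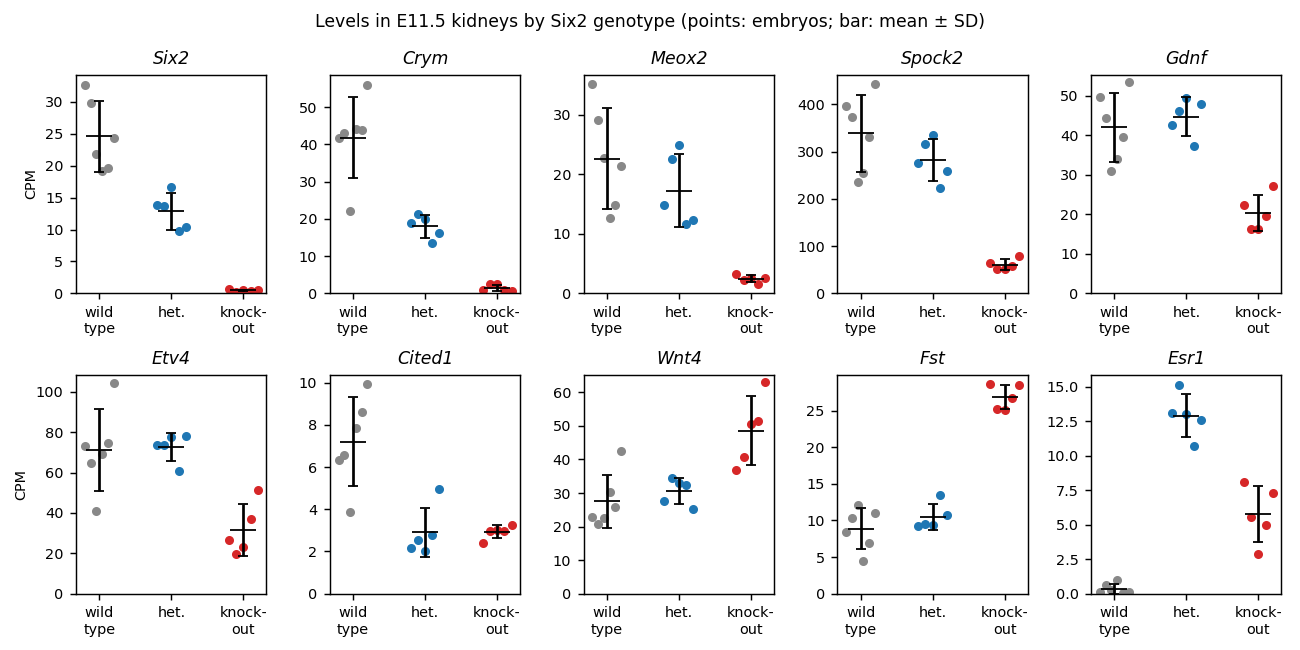
CPM of 10 genes in each E11.5 embryo (points) by genotype, with the mean and SD as bars; each vertical axis starts at 0. Six2, Crym, Meox2, Spock2, Gdnf and Etv4 lay lower in all 5 knockout than in all 5 heterozygous embryos, Wnt4 and Fst lay higher, Cited1 overlapped, and Esr1 was close to 0 in wild-type embryos.

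Loss of the second Six2 copy was accompanied by more falls than rises among the genes called. Of 16141 genes tested, 595 (3.69%) passed an adjusted p of 0.05: 451 (2.79%) were lower in knockout kidneys and 144 (0.892%) higher. The median change was -0.37 on the log2 scale among the 451 lower genes and 0.73 among the 144 higher genes, and the median heterozygous level was 62.2 CPM for the lower and 7.39 CPM for the higher genes. At 2-fold or more, 85 genes were lower and 45 higher. For comparison, the same model called 1144 genes (7.09%) between knockout and wild-type kidneys and 11 (0.0681%) between heterozygous and wild-type kidneys. These comparisons share embryos with the present one. The CPM values of the 5 and 5 embryos did not overlap for 658 genes (4.08%; 1.56% higher and 2.52% lower in knockout), and 342 genes were both called and not overlapping. Because whole kidneys were sequenced, fewer cells of a type and less RNA per cell cannot be told apart in any of these values. Leaving out 1 embryo at a time moved the count of called genes between 219, without knockout replicate 5, and 645, without knockout replicate 1. Of the other embryos, leaving out heterozygous replicate 5 gave 284 calls, heterozygous replicate 2 gave 333, knockout replicate 4 gave 350 and knockout replicate 2 gave 377. Without the batch term, 39 of the 78 named genes called below did not pass, with adjusted p from 0.0503 to 0.779. The count over all genes was 299 without the libraries that had more than 5% of counts on ribosomal RNA genes.

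**Figure D2:**
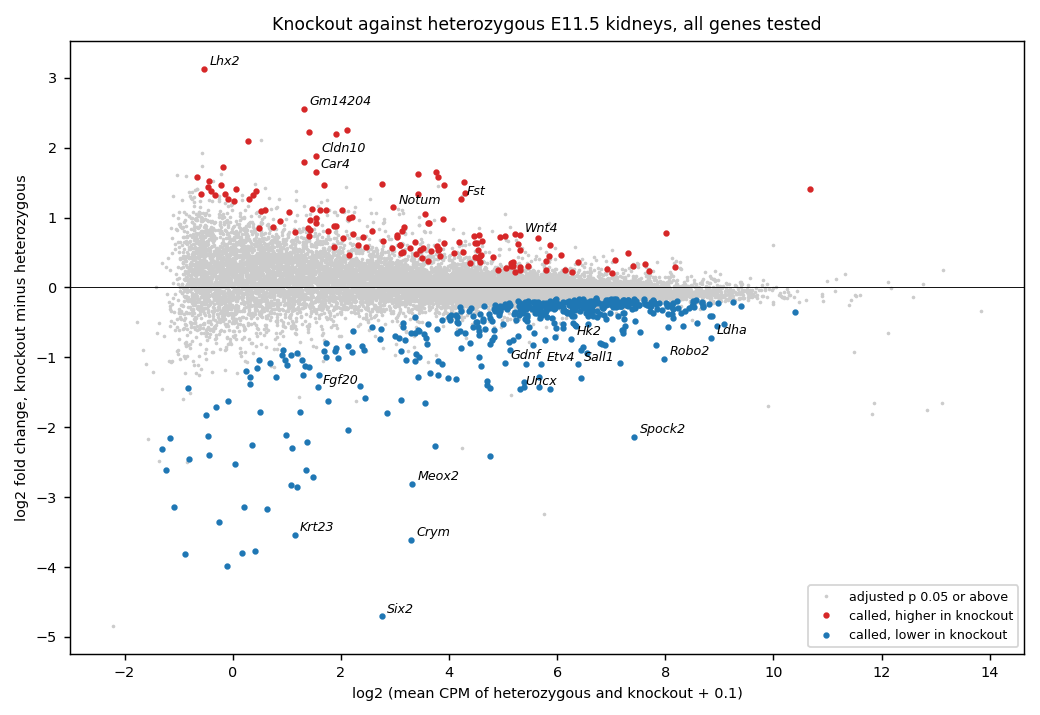
Log2 fold change, knockout minus heterozygous, of all 16141 genes tested against the log2 mean level (CPM + 0.1); coloured points are the 451 lower and 144 higher genes called. Lower genes reach high levels and large sizes (Spock2, Robo2), whereas the largest rises are in genes of low level (Lhx2, Gm14204).

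The 12 largest falls, among genes that were called, did not overlap and reached a mean of 1 CPM, were 2610028E06Rik, Gm29418, Crym, Krt23, Pnmt, Clrn1, Slco4c1, Galnt15, Fgf1, Meox2, Cdhr1 and Cutal, with log2 fold changes from -3.79 to -2.61. All 12 kept their call when any 1 of the 10 embryos was left out. With title prefix and batch both in the model, only Crym and Meox2 of the 12 kept it. Crym, which encodes mu-crystallin, a thyroid hormone binding protein and a marker of early nephron progenitors, was at 18.9, 21.2, 20.1, 13.5 and 16.1 CPM in heterozygous and at 1.01, 2.38, 2.42, 0.883 and 0.685 CPM in knockout embryos. No knockout embryo came within 5-fold of a heterozygous one. Its log2 fold change was -3.61 ± 0.33 (adjusted p = 9.27e-06). Crym was also lower in heterozygous than in wild-type kidneys (-1.27 ± 0.22, adjusted p = 0.0477), whose mean was 41.8 CPM.

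Meox2, a homeobox transcription factor of early mesoderm, was at 14.8, 22.5, 25.0, 11.6 and 12.3 CPM in heterozygous and at 3.28, 2.19, 2.54, 1.66 and 2.57 CPM in knockout embryos. The lowest heterozygous embryo held more than 3 times the level of the highest knockout embryo. The log2 fold change was -2.81 ± 0.20 (adjusted p = 1.29e-06), and among the 78 named genes called Meox2 was the only one besides Six2 to keep its call in every alternative setting tried, each batch alone included. Fgf1, a fibroblast growth factor, fell by 2.83 ± 0.33 on the log2 scale, from 3.59 ± 1.402 CPM (mean ± SD, n = 5) to 0.448 ± 0.105 CPM (n = 5, adjusted p = 8.36e-05). Krt23, a type I keratin known from ureteric tips, was at 4.68, 3.56, 3.38, 4.32 and 3.68 CPM in heterozygous and at 0.353, 0.191, 0.121, 0.496 and 0.343 CPM in knockout embryos (-3.54 ± 0.32, adjusted p = 8.35e-06). Slco4c1, an organic anion transporter also known from ureteric tips, ranged from 0.953 to 3.11 CPM in heterozygous and from 0 to 0.382 CPM in knockout embryos (-3.14 ± 0.43, adjusted p = 0.000438).

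The other large falls were in genes of low level. Pnmt, the enzyme that converts noradrenaline to adrenaline, ranged from 1.20 to 1.46 CPM in heterozygous and from 0 to 0.343 CPM in knockout embryos (-3.35 ± 0.50, adjusted p = 0.00087). Clrn1, which encodes the membrane protein clarin 1, ranged from 1.87 to 3.68 CPM against 0.110 to 0.571 CPM (-3.17 ± 0.35, adjusted p = 5.04e-05). Galnt15, an enzyme that starts mucin-type O-glycosylation, ranged from 1.49 to 5.47 CPM against 0.382 to 0.514 CPM. The long non-coding RNA 2610028E06Rik (chromosome 4) ranged from 1.50 to 2.57 CPM against 0 to 0.229 CPM, with the largest fold change of the 12 (-3.79 ± 0.41, adjusted p = 4.38e-05).

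**Figure D3:**
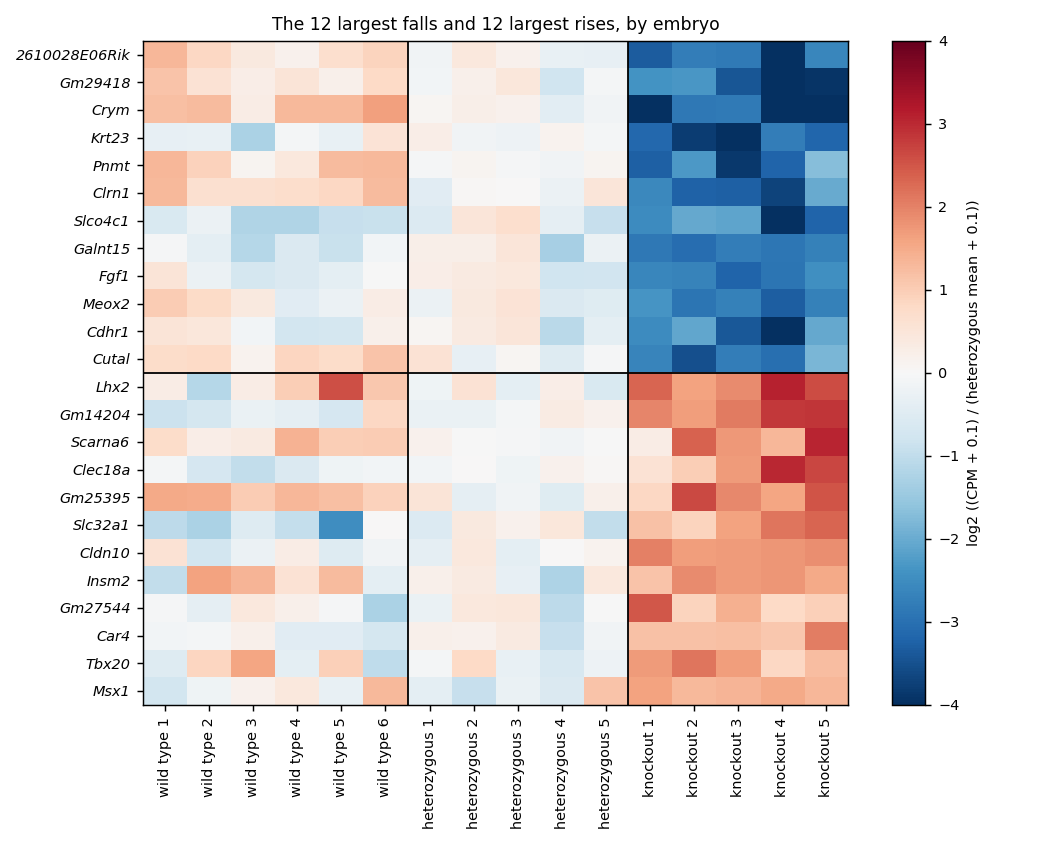
Log2 ratio of each embryo's level to the heterozygous mean (0.1 CPM added to both) for the 12 largest falls (top) and 12 largest rises (bottom), in 6 wild-type, 5 heterozygous and 5 knockout embryos. The falls are blue in all 5 knockout embryos; among the rises, Clec18a, Gm14204 and Scarna6 differ in strength between knockout embryos.

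The 12 largest rises were Lhx2, Gm14204, Scarna6, Clec18a, Gm25395, Slc32a1, Cldn10, Insm2, Gm27544, Car4, Tbx20 and Msx1, with log2 fold changes from 3.13 to 1.47. Cldn10, a claudin of tight junctions in renal tubules, was at 0.913, 1.63, 0.878, 1.20 and 1.32 CPM in heterozygous and at 5.09, 4.00, 4.06, 4.25 and 4.63 CPM in knockout embryos. The 5 knockout values lay close together and well above the heterozygous range, and the log2 fold change was 1.89 ± 0.25 (adjusted p = 0.000348). Car4, a membrane-bound carbonic anhydrase, was at 1.73, 1.69, 1.96, 0.747 and 1.36 CPM against 3.53, 3.53, 3.57, 3.25 and 6.51 CPM (1.66 ± 0.23, adjusted p = 0.000438). Clec18a, a C-type lectin, was at 0.81 to 1.04 CPM in heterozygous embryos and at 1.41, 1.91, 3.21, 8.11 and 6.40 CPM in knockout embryos, the last 2 being those of batch 2 (2.22 ± 0.32, adjusted p = 0.000737).

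Lhx2, a LIM-homeodomain transcription factor, was at 0.0454 to 0.233 CPM in heterozygous and at 0.572 to 1.76 CPM in knockout embryos (3.13 ± 0.57, adjusted p = 0.00527), a difference between very low counts. Msx1, a homeobox gene, ranged from 0.817 to 3.77 CPM against 4.196 to 5.29 CPM (1.47 ± 0.35, adjusted p = 0.0289), and Tbx20, a T-box transcription factor, from 2.08 to 5.77 CPM against 5.90 to 14.7 CPM (1.47 ± 0.38, adjusted p = 0.04). Insm2, a zinc finger gene, ranged from 0.415 to 1.54 CPM against 2.57 to 4.48 CPM (1.79 ± 0.44, adjusted p = 0.0326). Some rises were not clear against wild-type embryos, which reached 3.61 CPM for Insm2 and 1.22 CPM for Lhx2. Between knockout and wild-type kidneys, Insm2 (adjusted p = 0.233), Tbx20 (0.1075) and Gm25395 (0.0786) did not pass the same test. The others of the 12, Lhx2 included (adjusted p = 0.0375), did. With title prefix and batch both in the model, no gene at all was called higher. In the model without prefix, 7 of the 12 rises kept their call without any 1 embryo. The other 5 were Slc32a1, lost without heterozygous replicate 5 or knockout replicate 5 (adjusted p up to 0.183), Insm2, lost without any of 8 embryos (up to 0.105), Gm27544, without any of 9 (up to 0.143), Tbx20, without any of 9 (up to 0.235), and Msx1, without any of 6 (up to 0.115). Scarna6 and Gm25395 are small nuclear RNAs of the Cajal body, both lying inside Atg16l1 on chromosome 1. Scarna6 was at 1.45 to 1.83 CPM in heterozygous embryos and at 1.97, 8.58, 5.57, 4.19 and 14.1 CPM in knockout embryos. Wild-type embryos, at 1.94 to 4.31 CPM, all lay above the heterozygous range. The same held for Gm25395, at 2.69 to 4.09 CPM in wild-type and 0.955 to 1.99 CPM in heterozygous embryos. Neither gene passed between heterozygous and wild-type kidneys (adjusted p = 0.507 and 0.174). Of the 144 higher genes, 10 were annotated as small RNA genes and of the 451 lower genes none was, where 217 of the 16141 genes tested were small RNA genes.

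Some called genes lay near one another or near Six2. Gm29418, a long non-coding RNA 107944 bases from Six2 on chromosome 17, fell from 2.29 ± 0.703 CPM to 0.182 ± 0.174 CPM (mean ± SD, n = 5 each; -3.77 ± 0.45, adjusted p = 0.000104). None of the 9 other tested genes around Six2 was called, and their log2 fold changes ranged from -0.25 (Prkce) to 0.37 (Slc3a1). 

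On chromosome 2, Cutal, Phf19 and Traf1 are neighbours and all fell. Cutal, a relative of the copper tolerance gene Cuta, was at 6.44, 3.44, 4.53, 2.99 and 4.18 CPM in heterozygous and at 0.605, 0.286, 0.545, 0.441 and 1.14 CPM in knockout embryos (-2.61 ± 0.27, adjusted p = 4.04e-05). Phf19, a Polycomb-associated protein, was at 43.0, 48.1, 49.4, 39.6 and 45.8 CPM against 10.7, 6.96, 6.84, 8.72 and 8.57 CPM (-2.41 ± 0.20, adjusted p = 5.44e-06). Traf1, a signalling adaptor of the tumour necrosis factor receptor family, ranged from 3.09 to 5.12 CPM against 0.606 to 1.01 CPM (-2.21 ± 0.27, adjusted p = 0.000142). None of the 3 genes overlapped between groups. Phf19 lies 1625 bases from Cutal and Traf1 27724 bases from Phf19. Psmd5, a proteasome assembly chaperone that overlaps the start of Cutal on the other strand, fell by 0.33 ± 0.06 on the log2 scale (adjusted p = 0.00669), and reads of the overlap cannot be told apart where counting ignored strand, which the sources used here do not state. Phf19, Traf1 and Psmd5 were chosen after their values were seen. The 250 bases before the RefSeq start of Cutal and of Traf1 are shown because these genes move together, with matches to TGATAC, the core of the motif known for homeodomain proteins of the sine oculis family such as Six2, in capitals (GRCm38.p6, each on the strand of its gene).
Cutal, chr2:34874146-34874395, plus strand: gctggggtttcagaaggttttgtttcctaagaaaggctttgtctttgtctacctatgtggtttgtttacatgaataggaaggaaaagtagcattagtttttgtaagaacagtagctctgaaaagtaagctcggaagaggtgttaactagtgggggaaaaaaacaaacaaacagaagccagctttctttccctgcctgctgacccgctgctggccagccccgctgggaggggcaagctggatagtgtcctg
Traf1, chr2:34961773-34962022, minus strand: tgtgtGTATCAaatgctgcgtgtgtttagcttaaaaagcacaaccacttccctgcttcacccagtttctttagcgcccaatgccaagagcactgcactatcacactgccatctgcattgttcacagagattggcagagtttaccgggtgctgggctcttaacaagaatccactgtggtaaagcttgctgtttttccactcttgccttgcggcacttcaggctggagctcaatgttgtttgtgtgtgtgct
The Traf1 window holds 1 match, on its reverse strand, and the Cutal window none. TGATAC (both strands) was found in the 250 bases before the start of 3.32% of the 11226 tested genes matched to a promoter entry. It was found for 4.62% of the 346 matched lower genes (16 genes) and 6.86% of the 102 matched higher genes (7 genes). Of all 32851 promoter windows, 4.64% held it. TCAGGTTTC, another motif known for this family, was found in 0.41% of the tested, 0.289% of the lower (1 gene) and 1.96% of the higher genes (2 genes). These shares were not tested against each other. A match is a string of letters and does not show binding.

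Slc32a1 and Gm14204 on chromosome 2 start beside each other on opposite strands, and both rose. Slc32a1, the vesicular transporter of GABA and glycine, was at 0.288, 0.642, 0.540, 0.664 and 0.182 CPM in heterozygous and at 1.16, 0.954, 1.64, 2.37 and 2.74 CPM in knockout embryos (2.09 ± 0.46, adjusted p = 0.0172). Gm14204, a non-coding transcript, was at 0.577, 0.583, 0.675, 0.913 and 0.817 CPM against 3.02, 2.48, 3.33, 5.74 and 5.83 CPM (2.56 ± 0.27, adjusted p = 4.38e-05). Neither gene overlapped between groups. The window before the RefSeq start of Slc32a1 (GRCm38.p6, plus strand) is shown because it carries both starts, with the 34 bases between the annotated start of Gm14204 and that of Slc32a1 in capitals.
Slc32a1, chr2:158610508-158610757, plus strand: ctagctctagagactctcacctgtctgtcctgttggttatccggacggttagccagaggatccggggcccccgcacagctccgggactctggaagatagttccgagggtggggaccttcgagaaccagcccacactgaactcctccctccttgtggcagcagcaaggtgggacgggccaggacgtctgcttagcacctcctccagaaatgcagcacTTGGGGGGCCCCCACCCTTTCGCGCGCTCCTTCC
The lower-case letters lie within the annotated Gm14204, which is read from the other strand.

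Most genes of the nephron progenitor list fell. This list and the others below were chosen with earlier results of these data known, so their shares are descriptions. Of 26 list members, Six2 not among them and all tested, 15 were lower, 1 was higher (Hoxc11) and 10 did not pass, against 2.79% of all genes lower. The median member changed by -0.76 on the log2 scale, against -0.00 over all genes tested, and its summed level was 2186 to 2872 CPM in heterozygous, 1457 to 1626 CPM in knockout and 2240 to 2986 CPM in wild-type embryos. The number lower was 14 or 15 with any 1 embryo left out, 14 without the libraries rich in ribosomal RNA and 12 without the batch term. It was 2 with title prefix and batch both in the model. In 13 of the 16 members called the groups did not overlap, and the same held for 342 of all 595 genes called. Gas1 lost its call without any of 6 embryos (adjusted p up to 0.254) and Hoxc11 without any of 9 (up to 0.194).

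Among transcription factors of the progenitors, Meox1, a relative of Meox2, was at 65.8, 60.0, 61.8, 54.3 and 62.9 CPM in heterozygous and at 29.1, 17.3, 19.3, 18.7 and 27.1 CPM in knockout embryos (-1.36 ± 0.15, adjusted p = 4.76e-05). Uncx, a homeobox gene, was at 56.2, 60.7, 62.5, 46.3 and 68.5 CPM against 15.5, 12.3, 13.6, 26.1 and 32.6 CPM (-1.45 ± 0.22, adjusted p = 0.00124), with the 2 knockout embryos of batch 2 the highest of their group. Sall1, a zinc finger repressor needed for kidney formation, ranged from 66.5 to 179 CPM against 42.9 to 62.4 CPM (-1.10 ± 0.20, adjusted p = 0.0056), and its adjusted p was 0.0643 without the batch term. Eya1, the phosphatase and coactivator that works with Six2 and its relatives, was at 148, 182, 224, 98.7 and 117 CPM against 102, 83.3, 81.6, 61.8 and 86.8 CPM. Its groups overlapped, with 1 heterozygous embryo of batch 2, at 98.7 CPM, below 1 knockout embryo of batch 1 (-0.82 ± 0.15, adjusted p = 0.00505; 0.245 without the batch term). Osr1, an early regulator of the kidney field, fell by 0.71 ± 0.11 on the log2 scale (adjusted p = 0.00169), with 1 knockout embryo of batch 1, at 30.5 CPM, inside the heterozygous range of 28.6 to 39.4 CPM. Of the sine oculis, EYA and DACH families, 2 of 9 tested members were lower (Eya1 and Eya4), against 2.79% of all genes. None was higher, and Six4 and Six5 did not pass.

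Among secreted and surface proteins of the progenitors, Spock2, an extracellular proteoglycan, was abundant and fell strongly. It was at 275, 316, 335, 224 and 260 CPM in heterozygous and at 63.3, 50.6, 52.1, 58.6 and 78.6 CPM in knockout embryos (-2.14 ± 0.18, adjusted p = 5.44e-06). Itga8, the integrin subunit through which the mesenchyme contacts nephronectin, ranged from 98.9 to 127 CPM against 52.6 to 64.1 CPM (-0.90 ± 0.10, adjusted p = 5.04e-05). Rspo1, a secreted enhancer of Wnt signals, ranged from 28.7 to 36.9 CPM against 11.8 to 22.6 CPM (-1.12 ± 0.17, adjusted p = 0.00087). Inside the cell, Kif26b, a kinesin-like protein of the metanephric mesenchyme, was at 283, 302, 327, 247 and 299 CPM against 162, 178, 156, 155 and 171 CPM, a fall of modest size and small spread (-0.82 ± 0.06, adjusted p = 2.18e-06). Capn6, a calpain-like protein, ranged from 154 to 231 CPM against 80.1 to 97.1 CPM.

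Cited1, a transcriptional coregulator that marks the least differentiated progenitors, did not differ detectably between heterozygous and knockout kidneys (0.05 ± 0.22, adjusted p = 0.938). It was at 2.19, 2.57, 2.03, 2.78 and 4.95 CPM in heterozygous and at 2.42, 2.96, 3.03, 2.98 and 3.25 CPM in knockout embryos, and at 3.85 to 9.96 CPM in wild-type embryos. Heterozygous kidneys were already below wild-type kidneys for this gene (-1.29 ± 0.19, adjusted p = 0.014). Wt1 (-0.38 ± 0.13, adjusted p = 0.113; 0.0286 to 0.0332 in 3 other settings), Pax2 (-0.59 ± 0.28, adjusted p = 0.271) and Foxd1, the regulator of stromal progenitors (-0.37 ± 0.16, adjusted p = 0.226), did not pass the test. Pax2 varied widely among heterozygous embryos, from 10.9 to 44.6 CPM.

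**Figure D4:**
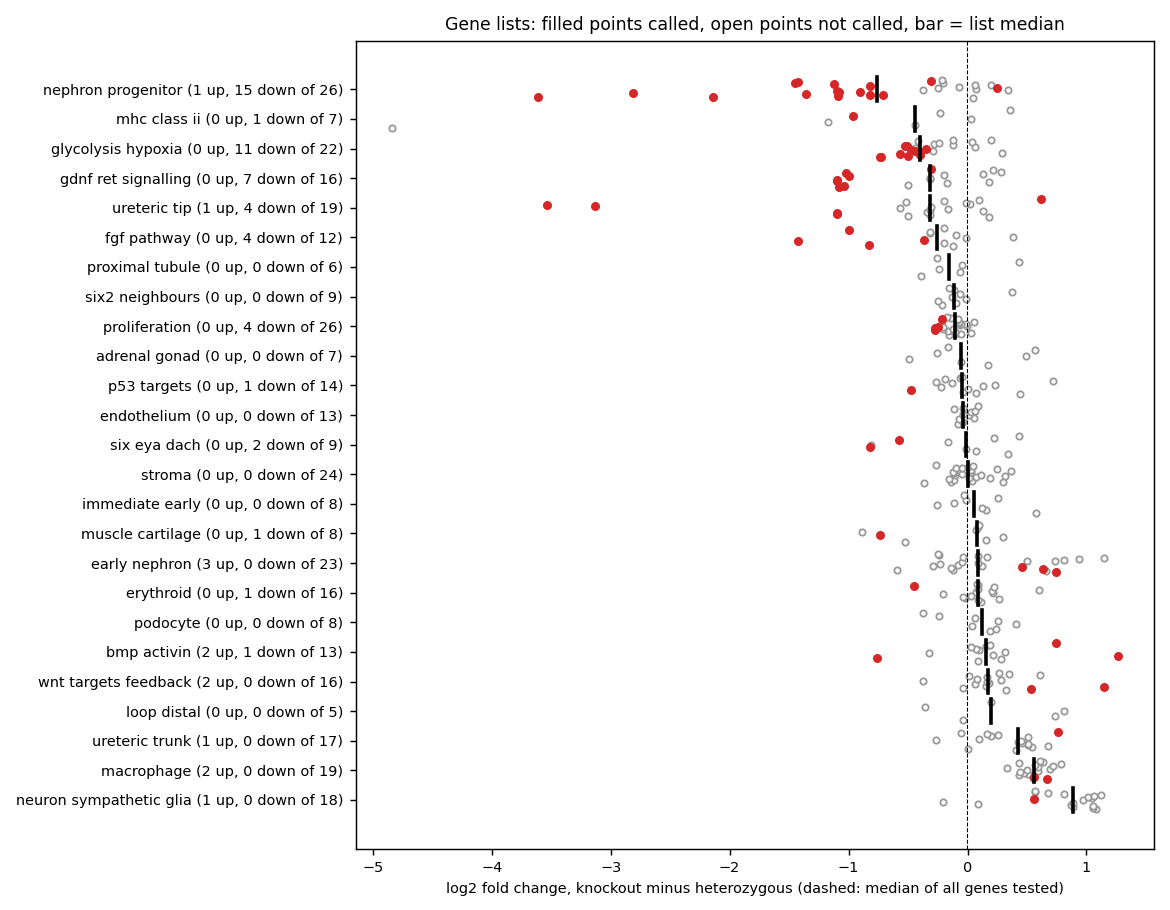
Log2 fold change, knockout minus heterozygous, of each tested member of 25 gene lists (filled where called), with the list median as a bar and the median of all genes tested as a dashed line. The nephron progenitor list has the lowest median, -0.76, and the list of neurons and glia the highest, 0.89.

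In the GDNF pathway the ligand Gdnf and some genes of the response were lower. Of 16 members tested, 7 were lower (2.79% of all genes were), none was higher and 9 did not pass, 4 of them above 0, with a median log2 fold change of -0.32. Of the lower members, Gdnf and Gas1 are also in the progenitor list, and Etv4 and Etv5 in the ureteric tip list. Gdnf, the ligand, was at 42.6, 46.2, 49.4, 37.2 and 48.0 CPM in heterozygous and at 22.3, 16.3, 16.3, 19.5 and 27.1 CPM in knockout embryos (-1.08 ± 0.16, adjusted p = 0.00103). The groups did not overlap, and knockout kidneys held less than heterozygous kidneys in each batch (-1.16 and -0.86 on the log2 scale). In edgeR's quasi-likelihood test neither batch passed alone (adjusted p = 0.208 and 0.223). The call was also lost with title prefix in the model, in place of batch or with it. Nrtn, a related ligand, ranged from 2.16 to 3.07 CPM against 0.763 to 2.21 CPM (-1.04 ± 0.26, adjusted p = 0.037), a call lost without any of 6 embryos (adjusted p up to 0.226). Ret ranged from 61.6 to 96.7 CPM in heterozygous and from 73.8 to 104 CPM in knockout embryos (0.18 ± 0.15, adjusted p = 0.556).

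Downstream of RET, Etv4 and Etv5, the ETS transcription factors it induces in ureteric tips, both fell, while Spry1 (-0.32), Spry2 (-0.32) and Dusp6 (-0.20), feedback inhibitors of receptor tyrosine kinase signals, did not pass. Etv4 was at 73.5, 73.9, 77.5, 60.8 and 77.9 CPM in heterozygous and at 26.6, 19.6, 23.1, 36.8 and 51.4 CPM in knockout embryos (-1.10 ± 0.18, adjusted p = 0.00252). Etv5 ranged from 43.2 to 77.6 CPM against 21.8 to 35.7 CPM (-1.09 ± 0.14, adjusted p = 0.000196). Spry4, a feedback inhibitor of receptor tyrosine kinases, ranged from 8.34 to 23.5 CPM against 5.90 to 6.85 CPM (-0.998 ± 0.19, adjusted p = 0.00787), and its adjusted p was 0.195 without the batch term. Robo2, the SLIT receptor of the mesenchyme that limits where Gdnf is expressed, was at 302, 348, 428, 279 and 315 CPM against 178, 203, 174, 124 and 171 CPM (-1.02 ± 0.12, adjusted p = 0.000104).

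Ureteric tip and trunk markers moved apart in their medians, at -0.31 and 0.43 on the log2 scale. Of 19 tip genes tested, 4 were lower (Etv4, Etv5, Slco4c1 and Krt23) and 1 higher, the GDNF-family receptor Gfra3. Among all genes tested, 2.79% were lower and 0.892% higher, and 50.5% had a fold change below 0. The summed tip level was 795.6 to 987.9 CPM in heterozygous and 679.4 to 850.7 CPM in knockout embryos. Wnt11, the Wnt ligand of the tips, ranged from 47.1 to 69.0 CPM against 33.6 to 46.6 CPM without passing the test (-0.31 ± 0.13, adjusted p = 0.207). Of 17 trunk genes tested 1 was higher, Cdh16, a cadherin of kidney epithelium (28.1 ± 9.27 against 46.6 ± 7.57 CPM, mean ± SD, n = 5 each; 0.76 ± 0.20, adjusted p = 0.0452), and 15 had a fold change above 0. The calls of Gfra3 and of Cdh16 were lost on leaving out any 1 of the 10 embryos (adjusted p up to 0.227 and 0.199). Wnt9b, the trunk ligand that acts on progenitors, did not pass (0.40 ± 0.22, adjusted p = 0.35). The tip and trunk medians were not tested against each other.

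Some genes of the FGF pathway list fell. Of 12 members tested, 4 were lower, against 2.79% of all genes, and none higher, with a median of -0.26. Of the lower members, Spry4 was also counted in the GDNF list and Fgf20 in the progenitor list. Fgf20, a ligand that sustains nephron progenitors, was at 3.31, 4.72, 4.93, 4.03 and 4.13 CPM in heterozygous and at 1.92, 1.05, 1.33, 1.49 and 1.77 CPM in knockout embryos (-1.43 ± 0.24, adjusted p = 0.00276). Fgf9, which acts with it, ranged from 4.90 to 8.63 CPM against 2.70 to 4.34 CPM (-0.83 ± 0.20, adjusted p = 0.0317), a call lost without any of 8 embryos (adjusted p up to 0.0838). Fgfr1, a receptor, ranged from 110 to 237 CPM against 97.6 to 144 CPM, with overlapping groups (-0.37 ± 0.08, adjusted p = 0.0122; 0.779 without the batch term and 0.0734 without the libraries rich in ribosomal RNA), and Fgfr2 did not pass (-0.01).

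In the BMP and activin list, 1 of 13 tested members was lower and 2 were higher, against 2.79% and 0.892% of all genes. Bmp7, a survival signal for progenitors, was at 62.9, 68.8, 71.4, 63.7 and 76.7 CPM in heterozygous and at 47.0, 36.4, 41.2, 40.0 and 38.6 CPM in knockout embryos (-0.76 ± 0.11, adjusted p = 0.00054). Fst, the secreted antagonist of activin, moved the other way, from 9.27, 9.45, 9.32, 13.5 and 10.7 CPM to 28.7, 25.3, 25.1, 26.8 and 28.5 CPM (1.27 ± 0.19, adjusted p = 0.00079). Its 5 knockout values spread over less than 4 CPM and were all above the highest wild-type embryo at 12.1 CPM. Id4, a helix-loop-helix inhibitor, ranged from 12.9 to 18.0 CPM against 22.1 to 31.2 CPM (0.74 ± 0.12, adjusted p = 0.00237), and its adjusted p was 0.0641 without knockout replicate 5.

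Genes of the first steps of nephron formation rose in part. Of 23 members tested, 3 were higher (Wnt4, Cdh6 and Jag1) and none lower, the list's median was 0.09, and 0.892% of all genes were higher. Wnt4, the signal by which induced progenitors turn epithelial, was at 27.6, 34.4, 33.1, 32.4 and 25.2 CPM in heterozygous and at 36.8, 40.6, 50.7, 51.5 and 63.0 CPM in knockout embryos (0.75 ± 0.16, adjusted p = 0.0157). The groups did not overlap. The difference was 0.24 in batch 1 and 1.06 in batch 2 on the log2 scale, each fitted alone with sex in the model. In batch 1 only the wild-type embryos separate sex from these genotypes. Cdh6, the cadherin of the early nephron, ranged from 13.2 to 21.9 CPM against 21.9 to 31.5 CPM (0.64 ± 0.13, adjusted p = 0.0089). Jag1, a Notch ligand, ranged from 49.4 to 67.9 CPM against 64.3 to 79.9 CPM (0.46 ± 0.12, adjusted p = 0.0491). No member of the list was called without knockout replicate 5, and 1 was called without heterozygous replicate 5. Wnt4 then had adjusted p of 0.126 and 0.0792, and Cdh6 had 0.134 without knockout replicate 5. Jag1 lost its call without any of 9 embryos (adjusted p up to 0.165). The list also had no call without the batch term, where the adjusted p was 0.125 for Wnt4, 0.0679 for Cdh6 and 0.175 for Jag1.

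The other regulators of this step did not pass. Pax8, which marks induced mesenchyme, was at 17.4, 17.4, 18.5, 14.2 and 13.5 CPM in heterozygous and at 14.97, 13.0, 20.3, 29.7 and 37.2 CPM in knockout embryos (0.66 ± 0.19, adjusted p = 0.0702). It passed in 4 other settings, with adjusted p from 0.00591 with only the heterozygous and knockout embryos to 0.0463 without knockout replicate 2. The 2 knockout embryos of batch 2 stood highest, and those of batch 1 lay at or near the heterozygous range. Lhx1 (-0.60 ± 0.28, adjusted p = 0.274) and Fgf8 (-0.12 ± 0.34, adjusted p = 0.894), both needed for renal vesicles, were at means of 2.399 and 1.88 CPM in knockout embryos.

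Of 16 targets and feedback genes of Wnt/beta-catenin signalling, 2 were higher, against 0.892% of all genes, and none lower. Of the 16, 14 had fold changes above 0, where 50.5% of all genes tested lay below 0, and the median was 0.17. Lef1, a nuclear partner of beta-catenin, was at 16.8, 18.7, 20.6, 21.5 and 17.1 CPM in heterozygous and at 29.7, 24.9, 26.3, 25.0 and 31.5 CPM in knockout embryos (0.53 ± 0.11, adjusted p = 0.0155). The groups did not overlap, although batch 1 alone, with sex in the model, gave -0.10 and batch 2 alone 0.69. Notum, a secreted Wnt deacylase, ranged from 3.22 to 7.72 CPM against 7.25 to 14.6 CPM (1.15 ± 0.25, adjusted p = 0.0165). Without heterozygous replicate 5 the adjusted p was 0.0729 for Lef1 and 0.0755 for Notum, and without knockout replicate 5 it was 0.188 and 0.0705. Axin2 did not pass (0.32).

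Some genes of the glycolysis and hypoxia list fell by small amounts. Of 22 members tested, 11 were lower, against 2.79% of all genes, and none higher, with a median of -0.40. Hk2, the hexokinase that starts glycolysis, was at 98.5, 106, 115, 77.1 and 85.8 CPM in heterozygous and at 69.2, 50.1, 54.3, 56.3 and 54.5 CPM in knockout embryos (-0.74 ± 0.11, adjusted p = 0.00127). Ldha, lactate dehydrogenase, was at 522, 569, 554, 545 and 671 CPM against 440, 290, 285, 344 and 371 CPM (-0.72 ± 0.12, adjusted p = 0.00316), and Eno1, an enolase, ranged from 410 to 531 CPM against 287 to 356 CPM (-0.50 ± 0.09, adjusted p = 0.00506). In these 3 genes, which kept their call without any 1 embryo, the groups did not overlap. The other 8 called were Pgk1, Pfkl, Aldoa, Tpi1, Pgam1, Pkm, Slc16a3 and Pdk1, from -0.35 to -0.57. Slc2a1, a glucose transporter, did not pass (-0.44). Nor did the rest of the list, namely Pfkp, Gapdh, Slc2a3, Vegfa, Bnip3, Egln3, Ankrd37, Car9, Adm and P4ha1. The count of lower members was 4 when knockout replicate 5 was left out, 6 when heterozygous replicate 5 was, and 7 when either heterozygous replicate 2 or knockout replicate 4 was. It was 7 without the libraries rich in ribosomal RNA, and 3 without the batch term. With title prefix in place of batch it was 0, and Pfkl, Aldoa, Tpi1, Pgam1 and Pkm then had fold changes above 0.

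Proliferation genes changed by small amounts. The list median was -0.11, and 24 of the 26 tested lay below 0, against 50.5% of all genes. Against 2.79% of all genes lower, 4 members were lower (Mcm3, Mcm6, Mcm7 and Cdc6, which license DNA replication), by 0.22 to 0.27 on the log2 scale, and none higher. With title prefix in place of batch, all 4 had fold changes above 0. Mcm6 ranged from 416 to 528 CPM in heterozygous and from 357 to 401 CPM in knockout embryos (-0.27 ± 0.05, adjusted p = 0.00669). None of the 4 was called without knockout replicate 5 (adjusted p up to 0.142) or without the batch term, 1 was called without heterozygous replicate 5, and 2 without knockout replicate 4. The mitotic genes Mki67 (-0.16) and Top2a (-0.11) did not pass. Of 14 p53 targets tested, Phlda3 was lower (-0.47 ± 0.09, adjusted p = 0.00669; 0.101 without knockout replicate 5) and 13 did not pass.

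Markers of the other cell types of a dissected kidney were as follows. None of 24 stroma genes and none of 13 endothelial genes was called, with medians of 0.01 and -0.03, and the summed stroma level was 8286 to 9825 CPM in heterozygous and 7501 to 9192 CPM in knockout embryos. Of 19 macrophage genes, Cx3cr1 and Ptprc were higher and none lower, against 0.892% of all genes higher. All 19 had fold changes above 0, where 50.5% of all genes tested lay below 0, and the median was 0.56. Their summed level was 145.7 to 259.4 CPM in heterozygous, 154.5 to 346.2 CPM in knockout and 107.2 to 218.4 CPM in wild-type embryos, and no marker was at 0. The calls of Cx3cr1 and Ptprc were lost without any of 8 and any of 9 embryos (adjusted p up to 0.117 and 0.181). Of 18 neuron, sympathetic and glia genes tested 1 was higher and none lower, 17 had fold changes above 0, and the median was 0.89. Their summed level was 204.6 to 311.9 CPM in heterozygous and 348.7 to 507.3 CPM in knockout embryos, which did not overlap, and 149.6 to 460.5 CPM in wild-type embryos. Slc32a1, Insm2, Lhx2 and Tbx20, which are known from neurons or other tissues outside the nephron lineage, were also higher in knockout than in heterozygous embryos. Slc32a1 was highest in knockout replicate 5, Insm2 and Tbx20 in replicate 2 and Lhx2 in replicate 4. The part of such tissue in their rise was not tested.

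Among the remaining lists, Tfrc, the transferrin receptor, was the only 1 of 16 erythroid genes called (-0.45 ± 0.12, adjusted p = 0.0413; lost without any of 7 embryos, up to 0.178). Des, a muscle intermediate filament also found in stroma, was the only 1 of 8 muscle and cartilage genes called, from 129 to 233 CPM in heterozygous to 88.3 to 108 CPM in knockout embryos (-0.74 ± 0.11, adjusted p = 0.00058). Ciita, the activator of MHC class II genes, was the only 1 of 7 in its list (-0.96 ± 0.26, adjusted p = 0.05 after rounding; lost without any of 9 embryos, up to 0.153). No gene was called among 8 podocyte, 6 proximal tubule, 5 loop and distal tubule, 8 immediate-early and 7 adrenal and gonad genes tested. Of the 20 key regulators, 2 were higher and 6 lower, against 0.892% and 2.79% of all genes, with a median of -0.37. None of the 10 liver and gut genes was above the filter on low counts.

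Esr1, the oestrogen receptor alpha gene, had an unusual order of levels. It was at 13.1, 15.1, 13.0, 10.7 and 12.6 CPM in heterozygous and at 8.07, 5.53, 2.91, 4.96 and 7.31 CPM in knockout embryos, and at 0.0507 to 0.968 CPM in the 6 wild-type embryos. The heterozygous and knockout values did not overlap, but their difference did not pass the test in the model with wild-type embryos (-0.91 ± 0.31, adjusted p = 0.116). It passed in 4 other settings, with adjusted p from 0.0136 with only the heterozygous and knockout embryos to 0.0496 without the filter on low counts. Heterozygous kidneys were higher than wild-type kidneys by 5.1 ± 0.37 on the log2 scale (adjusted p = 2.89e-06). Whether the counts come from the endogenous gene was not tested.

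The knockout effect was compared between the 2 batches. No gene passed for the genotype by batch term in edgeR's quasi-likelihood test (0 of 16141), with 989 genes at an unadjusted p under 0.05 and a smallest adjusted p of 0.737. Within batch 1 alone 7 genes (0.0438%) were called and within batch 2 alone 56 (0.334%), of which 6 and 51 were among the 595. Of the 587 called genes that could be tested in both batches, 562 had the direction of the joint fit in each. Both batches contributed to those calls, so this count describes them and is no separate check. Sall1 differed by -1.86 in batch 1 and by -0.61 in batch 2, and Osr1 by -0.14 and -1.03, whereas Meox2 (-2.96 and -2.55), Spock2 (-2.22 and -1.88) and Capn6 (-1.03 and -1.02) were alike in both.

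**Figure D5:**
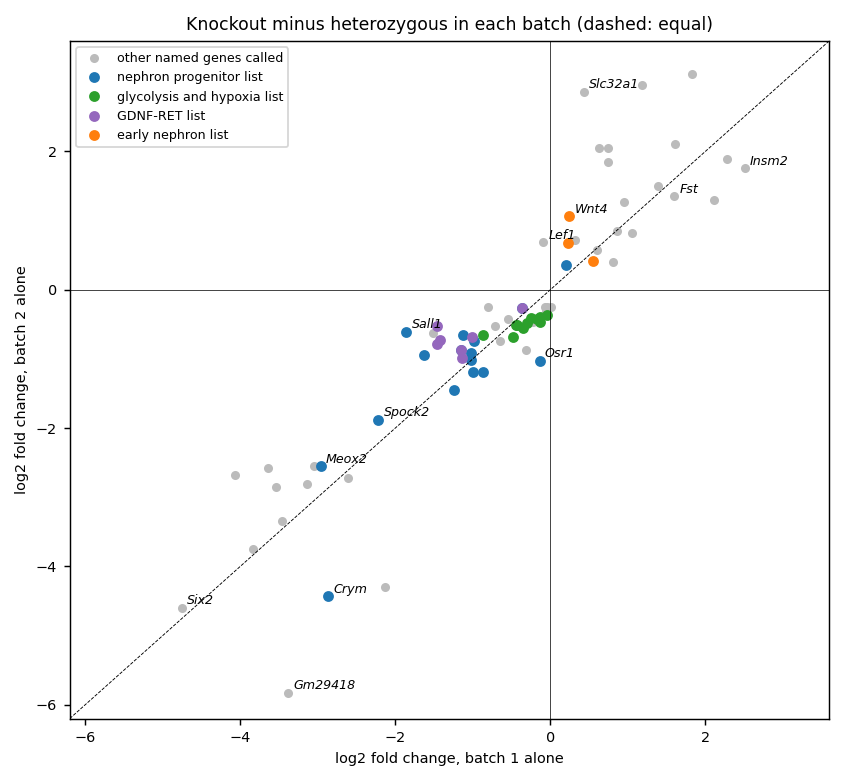
Log2 fold change, knockout minus heterozygous, in batch 2 alone against batch 1 alone, for the 77 named and called genes tested in both; the dashed line marks equal values. Of these genes 75 have the same sign in both batches, and Lef1 and Cdc6 lie on the other side of 0 in batch 1. In batch 1 only the wild-type embryos separate sex from these genotypes.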

How the data were processed

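RNA from snap-frozen whole kidneys was sequenced on Illumina libraries, per the labels. The authors deposited raw read counts per gene symbol. STAR 2.4.0h1, featureCounts 1.4.6 and build mm10 are named in the submitters' processing notes, and strandedness, annotation and the handling of multiply mapped reads are not given in the sources used here. Positions came from GENCODE vM21 and promoter sequences from RefSeq (GRCm38.p6). Of 16141 genes tested, 15623 had a position and 11226 a promoter entry.

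Counts of the embryo run in both batches were summed; its runs correlated at 0.251 after group and batch means were removed, against -0.235 to 0.166 for other pairs of heterozygous runs. Batch is the replicate number in the titles, and was the replicate block. Genes were kept by filterByExpr (minimum count 10, minimum total 15), scaled by TMM and tested with edgeR 4.0.16 (R 4.3.3) by the quasi-likelihood test with genotype, sex and batch over 16 embryos, with Benjamini-Hochberg adjustment over all genes at 0.05. CPM (counts per library of fixed size) use the scaled library sizes. Nothing says that libraries come from separate litters, so p-values measure the spread between these embryos. The depth of about 10820000 to 26230000 counts per library limits genes near 1 CPM. The fit was tested on simulated data with known changes.

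The members, the 27 gene lists (378 genes, 1 not in the table) and the settings were chosen with earlier results of these data known. Named genes are Six2, the 12 largest falls and 12 largest rises among genes called, not overlapping and at 1 CPM or more in the higher group, called list members, and a list of key regulators; 2 genes under this rule are not reported here singly. Alternatives were other scaling, DESeq2 1.42.0, no low-count filter, batch or sex left out, only the 10 embryos compared, either run of that embryo, each batch alone, title prefix as a block, ribosomal RNA genes left out or as a covariate, libraries rich in them left out, and each embryo left out.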

Additional observations from a re-analysis of the deposited data

Results flagged for a closer look

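In 13 of the 178 groups of 5 examined (89 named genes in 2 genotypes), 1 embryo stood apart by Dixon's criterion, and chance flags about 1 in 20 groups. Among knockout embryos the highest value stood apart for Car4 (replicate 5, 6.51 CPM, next 3.57), Sall1 (replicate 5, 62.4, next 47.3), Etv5 (replicate 5, 35.7, next 23.8), Gm27544 (replicate 1, 2.52, next 1.15), Gfra3 (replicate 3, 55.9, next 47.0), Nrtn (replicate 4, 2.21, next 1.14) and Wt1 (replicate 1, 155.8, next 128.0). The lowest knockout value stood apart for Gas1 (replicate 2, 187.4 CPM, next 200.6) and Jag1 (replicate 3, 64.3, next 76.7). Among heterozygous embryos the highest value stood apart for Tbx20 (replicate 2, 5.77 CPM, next 3.10), Msx1 (replicate 5, 3.77, next 1.35) and Cited1 (replicate 5, 4.95, next 2.78), and the lowest for Etv4 (replicate 4, 60.8, next 73.5). Knockout replicate 5, the male knockout embryo, accounts for 3 of the 13.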

How the results depend on the processing

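The log2 fold change of Six2 kept its sign and call in every setting run. The 595 called genes (144 higher, 451 lower) became 1015 (232, 783) with DESeq2, 154 (25, 129) without the replicate block of batch, all 154 of them among the 595, 963 (356 higher) with only heterozygous and knockout embryos, 7 (0, 7) in batch 1 and 56 (18, 38) in batch 2, 5 (0, 5) with title prefix and batch as blocks, and 299 (69, 230) without libraries above 5% ribosomal counts. The higher share was 37% instead of 24.2% with only those 10 embryos. Title prefix in place of batch called 602, of which 120 were among the 595. Named calls lost there include those of Gdnf, Etv4, Fgf20, Bmp7 and Uncx. Leaving out 1 embryo gave 219 to 645 called, 32 to 168 higher and 187 to 477 lower; the lowest are without knockout replicate 5. Of the 78 named calls 44 held in all 10 such fits, and none turned direction. The cause of these shifts was not tested.

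Directions turned as follows on the log2 scale, and the cause was not tested. Cited1 was -0.0511 without the replicate block, -0.035 with only the 10 embryos, -0.014 in batch 2, -0.042 with the ribosomal covariate and -0.088 without libraries rich in ribosomal counts, and ran from -0.067 to 0.28 with 1 embryo left out. Fgf8 was 0.045 with only the 10 embryos, 0.56 in batch 2, 0.083 with title prefix and 0.022 without the rich libraries, and ran from -0.296 to 0.035 with 1 embryo left out. Batch 1 gave -0.098 for Lef1, 0.0069 for Cdc6, 0.15 for Wnt11 and 0.55 for Esr1, and batch 2 gave 0.18 for Pax2. Title prefix as a block gave -0.0079 for Tbx20, 0.23 for Nrtn, 0.0085 for Pfkl, 0.0051 for Aldoa, 0.15 for Tpi1, 0.21 for Pgam1, 0.15 for Pkm, 0.077 for Mcm3, 0.011 for Mcm6, 0.058 for Mcm7, 0.014 for Cdc6 and 0.089 for Phlda3. Prefix with batch gave 0.055 for Pdk1, -0.024 for Ret and 0.48 for Esr1. The genotype by batch term called 0 genes also with the 15 embryos run in 1 batch only (1058 at an unadjusted p under 0.05).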

Other observations

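Several strongly changed genes lay outside the rule for named genes and were chosen after their values were seen. Rasef, a RAB-family GTPase, was at 21.2, 27.9, 31.5, 16.5 and 15.2 CPM in heterozygous and at 3.73, 4.196, 5.09, 3.58 and 4.63 CPM in knockout embryos (log2 fold change -2.27 ± 0.20, adjusted p = 8.35e-06 in edgeR's quasi-likelihood test). Has2, a hyaluronan synthase, ranged from 67.7 to 101 CPM against 26.1 to 44.6 CPM (-1.46 ± 0.16, adjusted p = 4.38e-05). Tpm2, a tropomyosin, ranged from 101 to 153 CPM against 39.8 to 59.0 CPM (-1.30 ± 0.11, adjusted p = 7.3e-06), and Ngfr, the low-affinity neurotrophin receptor, from 64.0 to 79.9 CPM against 20.5 to 33.3 CPM (-1.28 ± 0.19, adjusted p = 0.000737). Hoxb1, a Hox gene, fell by 2.30 on the log2 scale, and Capn11 (-3.99, adjusted p = 0.0388) and Tekt5 (-3.82, adjusted p = 0.0228) had larger falls than the named genes other than Six2, at heterozygous means of 1.53 and 0.817 CPM. Capn11 overlapped between groups, at 0.120, 2.45, 0.135, 2.03 and 2.905 CPM in heterozygous and 0 to 0.4845 CPM in knockout embryos. Myc fell from 46.3 to 23.8 CPM and Bcl2, a survival factor, from 114 to 63.4 CPM in their group means, with log2 fold changes of -0.90 ± 0.11 and -0.85 ± 0.09 and no overlap of embryos.

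Among the higher genes, Scube3, a secreted glycoprotein, rose by 0.78 on the log2 scale from a mean of 194.7 to 320.7 CPM (adjusted p = 1.03e-05), the most abundant protein-coding example looked at. Kif12, a kinesin, rose by 0.98 ± 0.19, with overlapping groups. Cldn8, a claudin of the collecting duct, rose by 0.73 ± 0.19, from 15.1 to 29.7 CPM in heterozygous to 32.7 to 51.2 CPM in knockout embryos. Rpph1, the RNA component of ribonuclease P, was at 632 to 1378 CPM in heterozygous and at 1248 to 3847 CPM in knockout embryos (1.41 ± 0.16, adjusted p = 8.36e-05), highest in knockout replicate 5. These groups overlapped, and wild-type embryos were at 947.5 to 2173 CPM. In edgeR's quasi-likelihood test, knockout kidneys differed from wild-type kidneys by 0.69 ± 0.15 (adjusted p = 0.00832). Heterozygous kidneys differed from wild-type kidneys by -0.72 ± 0.15 in that test, without passing (adjusted p = 0.148).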
